A study of Mus musculus with 594 samples.

Results

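The histone genes described here are the 20 mouse genes, of 11807 with a probe set on the array, whose symbol starts with one of the histone gene stems H1f, H2ac, H2bc, H2ax, H2az, H2af, H3c, H3f3, H4c, Hist1, Hist2 or Hist3. Each gene was read from 1 probe set that carries its symbol alone, the one with the highest mean over all arrays. The set holds 5 linker histone genes (H1f2, H1f4, H1f6, H1f8 and H1f10), 10 replication-dependent core histone genes (H2bc4, H2bc18, H2bc22, H3c1, H3c4, H3c7, H3c14, H3c15, H4c8 and H4c9) and 5 variant genes (H2ax, H2az1, H2az2, H3f3a and H3f3b). No core H2A gene and no H1f0 came through that rule. The members were chosen by name, not by their values.

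The mouse pancreatic lines alpha-TC1 (glucagon-producing) and beta-TC3 (insulin-producing) were treated for 1, 6 or 24 h with 1 of 29 compounds that act on chromatin enzymes, or with the solvent DMSO alone. Both are tumour-derived lines, and no primary islet cell is among the samples. The hydroxamic acids, a class of histone deacetylase (HDAC) inhibitors, were CRA-024781 (1.5 µM), ITF-2357 (10 µM), LBH-589 (0.015 µM), PXD101 (2.4 µM), SAHA (1.3 µM), pyroxamide (10 µM), scriptaid (2.0 µM) and trichostatin A (0.22 µM). The ortho-amino anilides, another HDAC inhibitor class, were CI-994 (10 µM), MGCD-0103 (1.1 µM) and MS-275 (2.9 µM). The cyclic tetrapeptide HDAC inhibitors were apicidin (1.4 µM) and HC-toxin (0.12 µM). Chaetocin (1.7 µM) and BIX-01294 (10 µM) target lysine methyltransferases, AMI-1 (10 µM) arginine methyltransferases, and 5-azadeoxycytidine, RG-0108 and zebuarine (10 µM each) DNA methylation. The 10 compounds known by code were BRD5298, BRD8451 and BRD9773 (10 µM), BRD6929 (0.91 µM), BRD-A94377914 (3.0 µM), BRD-K17311666 (4.3 µM), BRD-K22912318 (5.0 µM), BRD-K62233722 (3.7 µM), BRD-K90919562 (4.1 µM) and BRD-K92415738 (3.2 µM). A compound had 3 arrays per line and time, except in alpha-TC1 at 24 h, where chaetocin had 4 and SAHA, scriptaid, CI-994, BRD-K62233722 and BRD-K92415738 had 2. DMSO had 14, 14 and 14 arrays in alpha-TC1 and 12, 10 and 12 in beta-TC3 at 1, 6 and 24 h.

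Histones package DNA into nucleosomes, whose core holds H2A, H2B, H3 and H4, while linker histones of the H1 family bind the DNA where it enters and leaves. Replication-dependent histone genes lie in clusters and are made mostly in S phase, and their mRNAs mostly end in a stem-loop that the stem-loop binding protein recognises, without a poly(A) tail. Variant genes such as those for H2A.Z and H3.3 lie outside the clusters and give polyadenylated mRNAs through the cell cycle. The gene for H2A.X, a variant phosphorylated at DNA breaks, gives both a stem-loop mRNA like that of the clustered genes and a polyadenylated one. HDAC inhibitors block the removal of acetyl groups from the histone proteins themselves. Because the labelled RNA was primed with oligo(dT), per the labels' protocols, the amount of a histone mRNA and the share of it that carries a poly(A) tail cannot be told apart here. Each array holds the bulk RNA of a culture well, so fewer cells with a transcript and less of it per cell cannot be told apart either.

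The genes differed in where they lie. H1f2 (chr13:23738807-23739531), H1f4, H1f6, H2bc4, H2bc22, H3c1, H3c4, H3c7, H4c8 and H4c9 lie on chromosome 13 of the mouse build GRCm38.p6, and H2bc18, H3c14 (chr3:96246685-96247348) and H3c15 (chr3:96238479-96239127) lie close together on chromosome 3. RefSeq's promoter table of that build held 16 of the 20 genes. The first 4 sequences below, each ending at the last base before the transcript start, show the short elements that the clustered linker genes share and that a clustered H2B gene has in part. Capitals mark AAACACA (the H1 box), CCAAT, ATTTGCAT (the octamer) and TATANA, found on either strand, with overlapping TATANA matches merged.
H1f2 promoter, chr13:23738657-23738806, + strand: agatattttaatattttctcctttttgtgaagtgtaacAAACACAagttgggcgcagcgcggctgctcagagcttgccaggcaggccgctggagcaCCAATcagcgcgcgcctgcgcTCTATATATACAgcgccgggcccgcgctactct
H1f4 promoter, chr13:23622559-23622708, - strand: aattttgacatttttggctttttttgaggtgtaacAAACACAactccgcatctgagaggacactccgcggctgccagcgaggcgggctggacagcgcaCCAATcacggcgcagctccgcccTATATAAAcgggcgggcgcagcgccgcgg
H1f6 promoter, chr13:23695661-23695810, + strand: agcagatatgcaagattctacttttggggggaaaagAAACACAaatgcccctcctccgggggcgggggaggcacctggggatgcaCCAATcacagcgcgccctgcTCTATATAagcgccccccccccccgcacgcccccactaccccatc
H2bc18 promoter, chr3:96269550-96269699, + strand: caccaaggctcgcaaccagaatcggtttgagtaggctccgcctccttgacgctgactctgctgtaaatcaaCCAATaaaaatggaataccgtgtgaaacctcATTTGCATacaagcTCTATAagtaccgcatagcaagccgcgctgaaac
Within 250 bases before the start, AAACACA was found in 4 of the 16 histone promoters and in 6.25% of all 32851 promoters of the table. CCAAT was found in 11 (33.8% of all), TATANA in 8 (22.6%) and ATTTGCAT in 2, H2bc18 and H3f3b (1.6%). H1f2, H1f4 and H1f6 were the 3 that held the H1 box with both CCAAT and the TATANA element, a combination in 0.667% of all promoters, with the H1 box 112, 115 and 114 bases before the start.

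H3c14 and H3c15 are near-identical H3 genes, and the stretches before their starts are shown because of their rise under chaetocin. Of the histone genes described here, H3c14 had the largest change under chaetocin at 24 h in each line, and H3c15 rose in each line too.
H3c14 promoter, chr3:96246485-96246684, + strand: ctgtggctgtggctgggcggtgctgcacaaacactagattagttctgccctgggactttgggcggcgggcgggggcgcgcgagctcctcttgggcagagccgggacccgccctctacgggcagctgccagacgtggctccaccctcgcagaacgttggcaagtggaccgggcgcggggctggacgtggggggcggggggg
H3c15 promoter, chr3:96239128-96239327, - strand: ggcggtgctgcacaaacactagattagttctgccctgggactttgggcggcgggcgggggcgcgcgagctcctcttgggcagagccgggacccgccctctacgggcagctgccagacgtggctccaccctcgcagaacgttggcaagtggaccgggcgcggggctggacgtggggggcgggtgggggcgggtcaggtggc
Over 285 aligned bases, some of which lie after the transcript start, 284 were identical in H3c14 and H3c15. Neither held CCAAT or TATANA in its 250 bases. The transcripts may be hard to separate by probes too, so values of H3c14, whose probe set name ends in _s_at (probes shared between transcripts), and of H3c15 are uncertain as to which copy they read. The same holds for H3c1 (_s_at). The probe sets of H1f2, H2bc22, H2az1, H2az2 and H3f3b end in _a_at, so each may read several transcripts of its gene.

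All levels below are log2 intensities of a probe set, and levels of different probe sets are not compared. Array medians over all probe sets ran from 4.36 to 4.73 on that scale. Gcg and Ins2 fit the labels of the lines: in DMSO Gcg had a median of 12.41 in alpha-TC1 and 9.57 in beta-TC3, and Ins2 13.25 in beta-TC3 and 4.24 in alpha-TC1. Not every listed marker did. The beta cell marker Slc2a2 had medians of 3.04 in beta-TC3 and 2.87 in alpha-TC1. Cela1, listed as non-endocrine, had 6.22 in alpha-TC1 and 3.02 in beta-TC3. Sst, a delta cell marker, stood at 12.69 in beta-TC3. The leukocyte gene Ptprc and the endothelial gene Pecam1 lay between 2.52 and 3.22 on every DMSO array of either line, which serves as a guide to near-background values. Of the histone genes, 4 had a mean over all arrays in that range: H1f6 (a testis linker histone, 2.94), H1f8 (the oocyte linker histone, 2.94), H3c15 (2.97) and H2bc18 (3.15). A rise from a DMSO median at or under 3.22, the highest of those marker levels, shows only a lower bound of the change. Such bounds are given below as "at least" so many fold, from the mean of the compound arrays against a DMSO mean in which every array counts as no lower than that level.

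In DMSO at 24 h, 15 of the 20 histone genes differed between the lines (limma, Benjamini-Hochberg adjusted p under 0.05, called below), beside 59.2% of all genes. H4c9, a replication-dependent H4 gene, had a median of 9.73 (lowest 9.42, highest 10.47, n = 14) in alpha-TC1 and 4.61 (4.08 to 5.42, n = 12) in beta-TC3. The groups lay far apart, and the difference of 5.17 ± 0.14 (SE) is 36.1-fold. H3c1, a replication-dependent H3 gene, was higher in alpha-TC1 as well, at 10.57 (9.54 to 11.15) against 7.49 (7.10 to 8.24), a difference of 2.97 ± 0.16. H2ax lay the other way, with 7.56 (7.05 to 7.91) in alpha-TC1 and 9.25 (8.79 to 9.77) in beta-TC3. The H2ax groups did not overlap either, and the line difference was -1.75 ± 0.10. H1f2 was lower in alpha-TC1 by a log2 difference of -1.21 ± 0.14, at 6.68 (6.19 to 7.35) against 7.91 (7.26 to 8.80), with overlapping arrays. The other called genes differed by less than 1: H3c4, H3f3b and H3c7 were higher in alpha-TC1, and H2bc4, H1f10, H4c8, H2bc22, H2az2, H2bc18, H2az1 and H3f3a were higher in beta-TC3. Between 1 and 24 h in DMSO few histone genes moved: H2az2 rose by 0.22 and H4c9 by 0.28 in alpha-TC1 (5.06% of all genes called), and H2az2 rose by 0.26, H2az1 by 0.10 and H3f3b fell by 0.22 in beta-TC3 (10.3% of all genes). The count in alpha-TC1 was 0 when the batch term was left out.

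After 1 h no histone gene was called under any compound in either line, over 580 comparisons of a gene and a compound per line (limma). Without adjustment, 48 of these in alpha-TC1 and 35 in beta-TC3 had a p under 0.05, and of the comparisons of all genes 0.0327% and 0.0943% were called. Averaged over the hydroxamic acids at 1 h, H1f2 in alpha-TC1 was the one called histone gene, at -0.26 (0.593% of all genes called), a call lost without the batch term. In beta-TC3 the hydroxamic acid mean called none (0.906% of all genes), nor did the anilide mean in alpha-TC1 (0.0169%) or beta-TC3 (0.0254%). At 6 h, 98 of 580 comparisons were called higher and 36 lower in alpha-TC1, which is 23.1% beside 20.8% of the comparisons of all genes. In beta-TC3 at 6 h, 61 were higher and 44 lower (18.1% beside 22.1%). At 24 h, 76 were higher and 70 lower in alpha-TC1 (25.2% beside 21.3%), and 37 higher and 80 lower in beta-TC3 (20.2% beside 18.2%). As a set, then, histone genes were called about as often as other genes, and the pattern lay in which of them moved. For a single direction, the share of all comparisons called higher at 6 h was 11.2% in alpha-TC1 and 11.3% in beta-TC3, and called lower 9.58% and 10.7%. At 24 h those shares were 10.6% and 9.49% higher, and 10.7% and 8.73% lower, and the counts of called compounds per gene below are read beside them. They are no background for counts of compounds whose arrays all lie outside the DMSO range, for which no share over all genes was computed. All compounds of a line and time were compared with the same DMSO arrays.

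**Figure D1:**
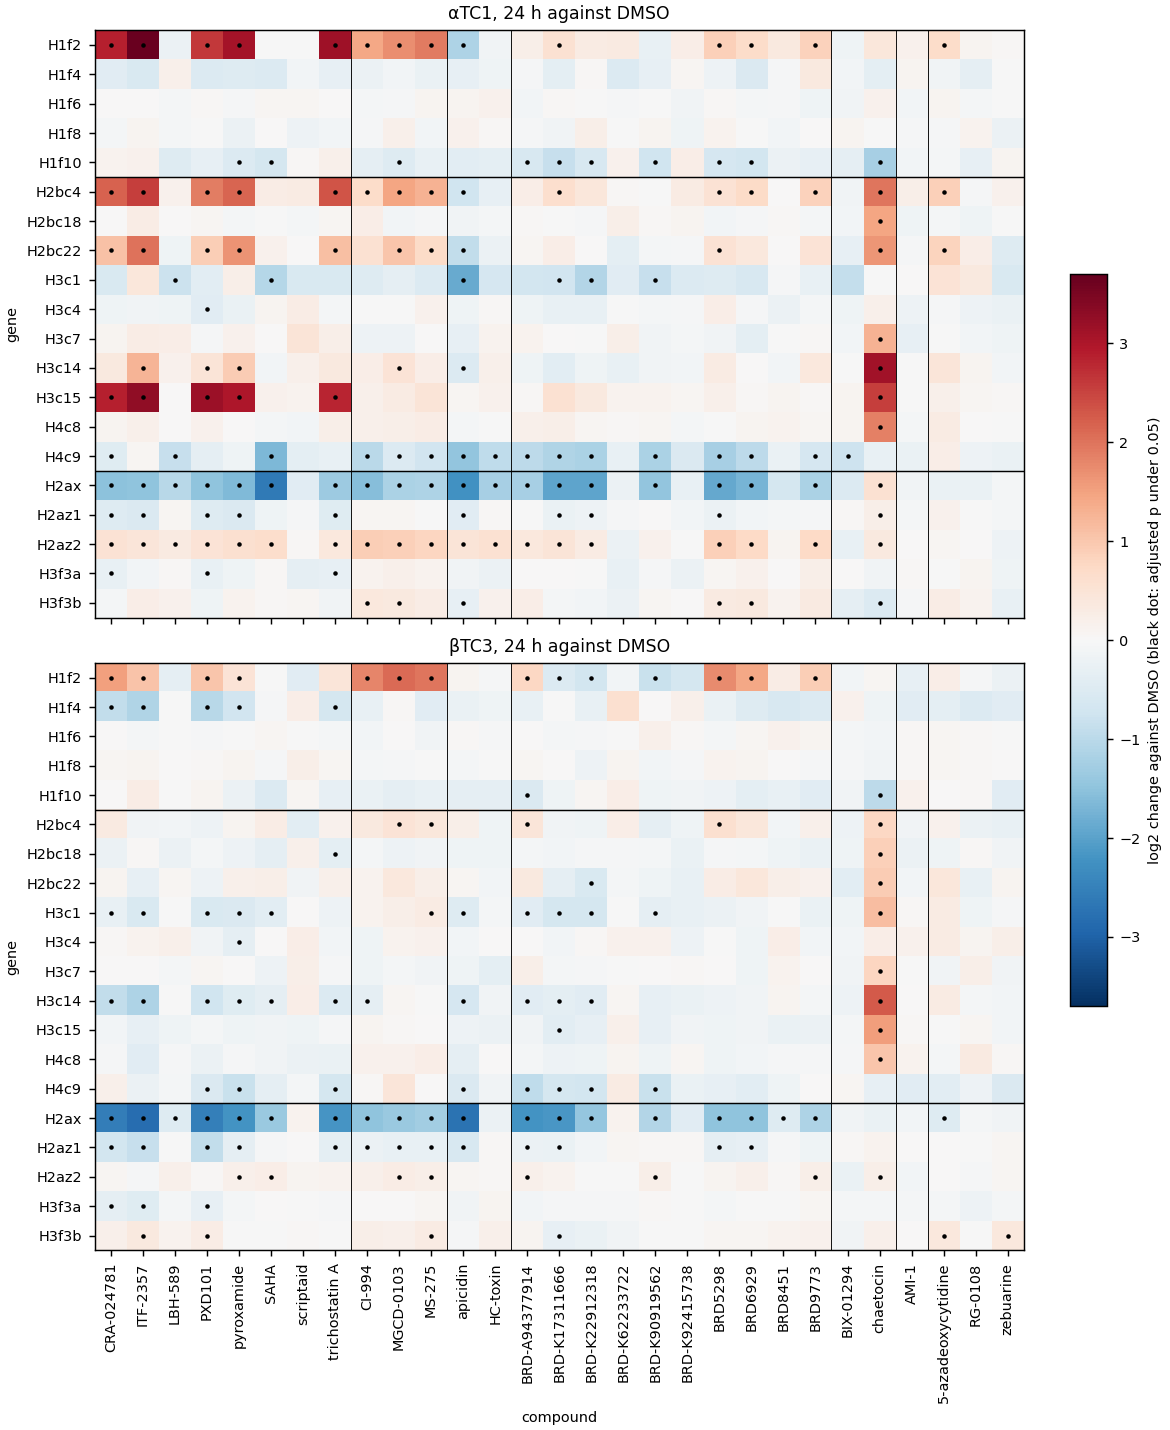
Colours give the log2 change of each of the 20 histone genes (rows) against DMSO at 24 h for the 29 compounds (columns) in each line, and black dots mark an adjusted p under 0.05. H2ax is lower under 19 compounds in alpha-TC1 and 20 in beta-TC3, H1f2 is higher under 13 and 11, and chaetocin raises replication-dependent genes that few other compounds raise.

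H1f2, the gene for the somatic linker histone H1.2, rose under more compounds than any other histone gene at 6 h in each line. It was then called higher under 18 of 29 compounds in each line, and the same 18 were called in both. These were all 8 hydroxamic acids, all 3 anilides, both cyclic tetrapeptides and 5 of the 10 coded compounds. The mean change over the hydroxamic acids was 1.62 ± 0.08 in alpha-TC1 (adjusted p 8.44e-29, limma) and 1.40 ± 0.08 in beta-TC3 (1.10e-24). DMSO arrays of alpha-TC1 at 6 h had a median H1f2 level of 7.06 (6.17 to 7.84, n = 14), and the CI-994 arrays stood at 9.53, 9.28 and 9.14, all above it. CI-994 gave the largest H1f2 change in alpha-TC1 at that time, 2.36 ± 0.16. In beta-TC3 the DMSO arrays had a median of 7.51 (6.54 to 8.53, n = 10), and trichostatin A, with the largest change of 2.03 ± 0.15, stood at 10.23, 8.88 and 8.78. All arrays of a compound lay above every DMSO array for 17 compounds in alpha-TC1 and for 6 in beta-TC3, where the DMSO arrays of different batches were further apart. How often other genes separate in this way was not computed. The mean H1f2 levels of DMSO in single batches differed by 0.97 to 1.94 between the lowest and the highest batch over the lines and times.

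At 24 h the H1f2 response divided the hydroxamic acids. In alpha-TC1, ITF-2357 arrays had H1f2 levels of 11.29, 10.47 and 10.14, against a DMSO median of 6.68 and a highest DMSO array of 7.35. The ITF-2357 change was 3.67 ± 0.20 (adjusted p 3.10e-25, limma). Trichostatin A arrays stood at 10.17, 9.74 and 9.49 (change 3.15), and pyroxamide arrays at 9.65, 9.65 and 10.22 (3.07). CRA-024781 and PXD101 gave changes of 2.89 and 2.61, and none of the arrays of these 5 compounds overlapped DMSO. By contrast SAHA (6.36 and 6.64), scriptaid (6.56 and 6.46) and LBH-589 (6.46, 6.55 and 6.04) lay inside or near the DMSO range, with changes of -0.02, -0.01 and -0.21 that were not called. At 6 h the same 3 compounds had raised H1f2 by 1.43, 1.44 and 1.44. The doses of the 8 hydroxamic acids differ, so these values stand side by side and the compounds are not compared. In beta-TC3 at 24 h H1f2 stood at 9.70, 9.69 and 9.61 under CRA-024781 (change 1.52), at 9.52, 9.42 and 9.70 under ITF-2357 (1.04) and at 9.11, 9.41 and 9.09 under PXD101 (1.02), all above the highest DMSO array of 8.80. Pyroxamide (8.77, 8.83 and 8.35) overlapped DMSO with a called change of 0.50, and trichostatin A (7.81, 8.67 and 8.03) was not called.

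The anilides kept H1f2 high in both lines at 24 h. MS-275 arrays of alpha-TC1 had levels of 8.48, 8.54 and 8.42, MGCD-0103 arrays 8.18, 8.29 and 8.33, and CI-994 arrays 7.84 and 8.03, all above DMSO. In beta-TC3 the levels were 10.47, 10.31 and 9.65 under MS-275, 9.46, 9.71 and 10.56 under MGCD-0103 and 9.24, 10.19 and 9.41 under CI-994, again all above DMSO. The class mean was 1.69 ± 0.15 in alpha-TC1 and 1.95 ± 0.13 in beta-TC3. Apicidin went the other way in alpha-TC1, where H1f2 levels of 4.82, 6.01 and 6.16 lay below every DMSO array and had fallen by 1.14 ± 0.21 (adjusted p 4.54e-06, limma), although at 6 h it had risen by 0.47. In beta-TC3 the H1f2 change under apicidin at 24 h was 0.09 ± 0.19, which was not called. Among coded compounds BRD5298, BRD6929 and BRD9773 raised H1f2 at 24 h (0.88, 0.69 and 0.85 in alpha-TC1, 1.74, 1.44 and 0.91 in beta-TC3) and had no H1f2 call at 6 h in either line. BRD-K90919562, BRD-K22912318 and BRD-K17311666 lowered it in beta-TC3 at 24 h, by changes of -0.83, -0.68 and -0.50.

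**Figure D2:**
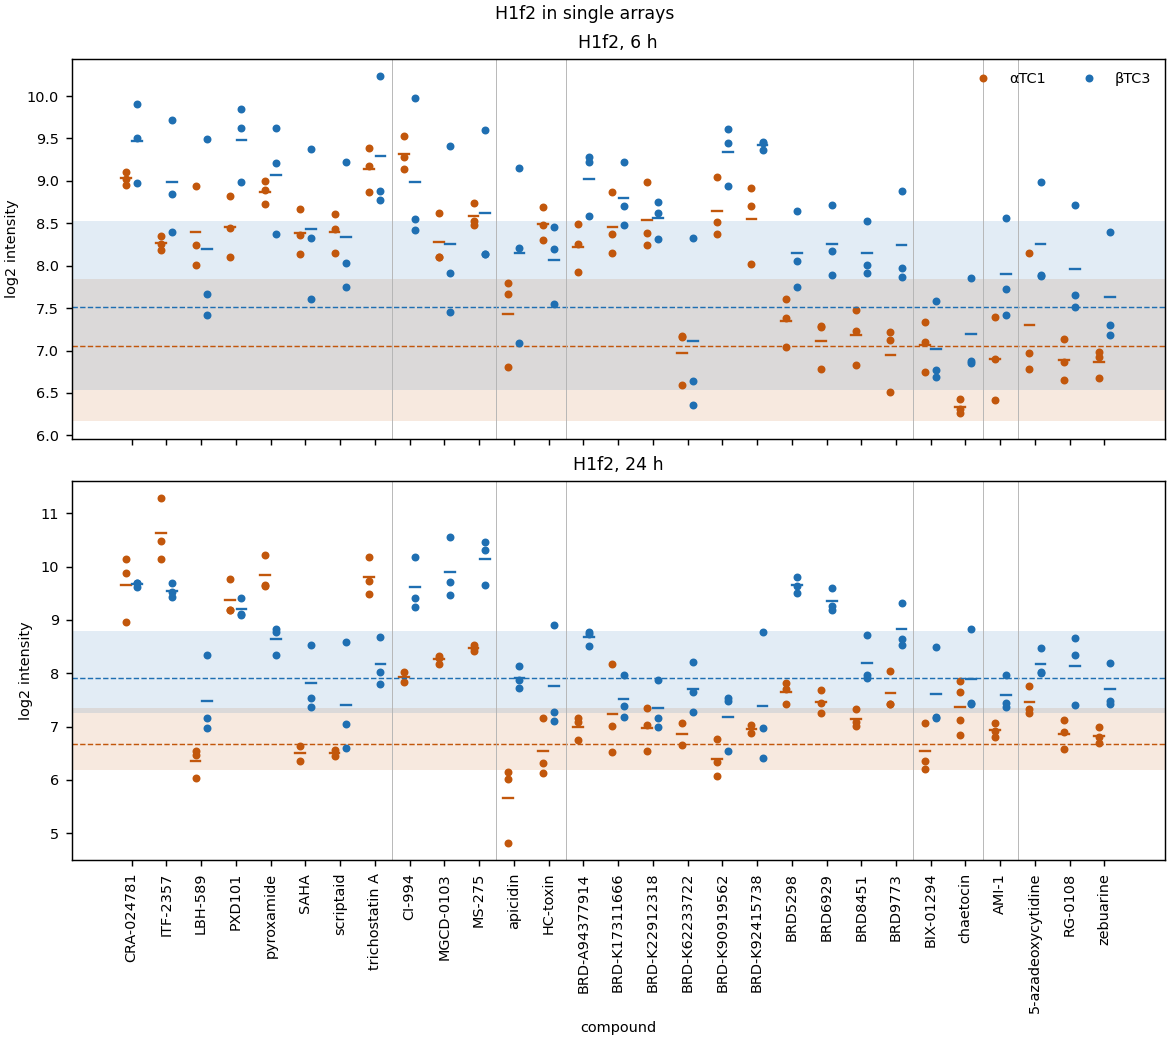
Points are H1f2 log2 intensities of single arrays by compound, short bars are group means, the shaded band runs from the lowest to the highest DMSO array and the dashed line is the DMSO median. At 24 h in alpha-TC1 the 5 hydroxamic acids ITF-2357, trichostatin A, pyroxamide, CRA-024781 and PXD101 stand above the band while SAHA, scriptaid and LBH-589 stand in or below it.

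H2ax, the variant whose protein marks DNA breaks once phosphorylated, fell under the most compounds. It was called lower under 16 compounds in alpha-TC1 and 15 in beta-TC3 at 6 h, and under 19 and 20 at 24 h. At 24 h, 18 compounds were called in both lines. All arrays of a compound lay below every DMSO array for 18 compounds in alpha-TC1 and 17 in beta-TC3 at 24 h, and no share over all genes was computed for such separation. In alpha-TC1 the DMSO arrays at 24 h had a median H2ax level of 7.56 (7.05 to 7.91). SAHA stood at 4.72 and 4.91, a change of -2.62 ± 0.22 (adjusted p 1.18e-14, limma), and apicidin at 5.61, 5.00 and 5.43, a change of -2.23 ± 0.18. All of these arrays lay below DMSO, as did ITF-2357 with arrays at 6.23, 6.37 and 5.98 and a change of -1.49. In beta-TC3, where DMSO had a median of 9.25 (8.79 to 9.77), ITF-2357 stood at 6.83, 7.07 and 6.91, a change of -2.81 ± 0.14 (adjusted p 1.91e-28). Those 3 arrays came from 1 batch, the one group of either line for which this holds, so none of its changes at 24 h in beta-TC3 was seen in a second batch. Apicidin stood at 6.53, 6.21 and 6.41 (-2.72) and SAHA at 7.59, 7.66 and 7.95 (-1.37). Scriptaid was the hydroxamic acid without an H2ax call at 24 h in either line, with arrays of 7.24 and 6.81 in alpha-TC1 and 9.25, 8.87 and 9.58 in beta-TC3.

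The time of the H2ax fall differed by class. At 6 h all 8 hydroxamic acids lowered it in both lines, with class means of -0.70 ± 0.07 and -0.63 ± 0.06. Under the 3 anilides H2ax was not lower at 6 h: CI-994 stood at 7.79, 8.02 and 7.26 against a DMSO median of 7.52 (7.07 to 8.34) in alpha-TC1, and at 9.23, 8.85 and 9.57 against 9.05 (8.80 to 9.66) in beta-TC3. The anilide mean at 6 h was 0.03 ± 0.10 in alpha-TC1 and 0.21 ± 0.07 in beta-TC3, where the rise was called but was lost without the batch term (adjusted p 0.8667, limma). The direct difference of hydroxamic acids minus anilides at 6 h was -0.73 ± 0.09 in alpha-TC1 (adjusted p 2.21e-10) and -0.84 ± 0.06 in beta-TC3 (6.91e-19). By 24 h the anilide means were -1.30 ± 0.13 and -1.39 ± 0.09, beside -1.44 ± 0.10 and -1.75 ± 0.07 for the hydroxamic acids. The class difference at 24 h was -0.14 with a 95% interval from -0.39 to 0.12 in alpha-TC1, not called, and -0.36 ± 0.08 in beta-TC3, called. The hydroxamic acid difference of H2ax from DMSO at 24 h, taken inside single batches, was negative in 7 of 7 batches in each line.

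**Figure D3:**
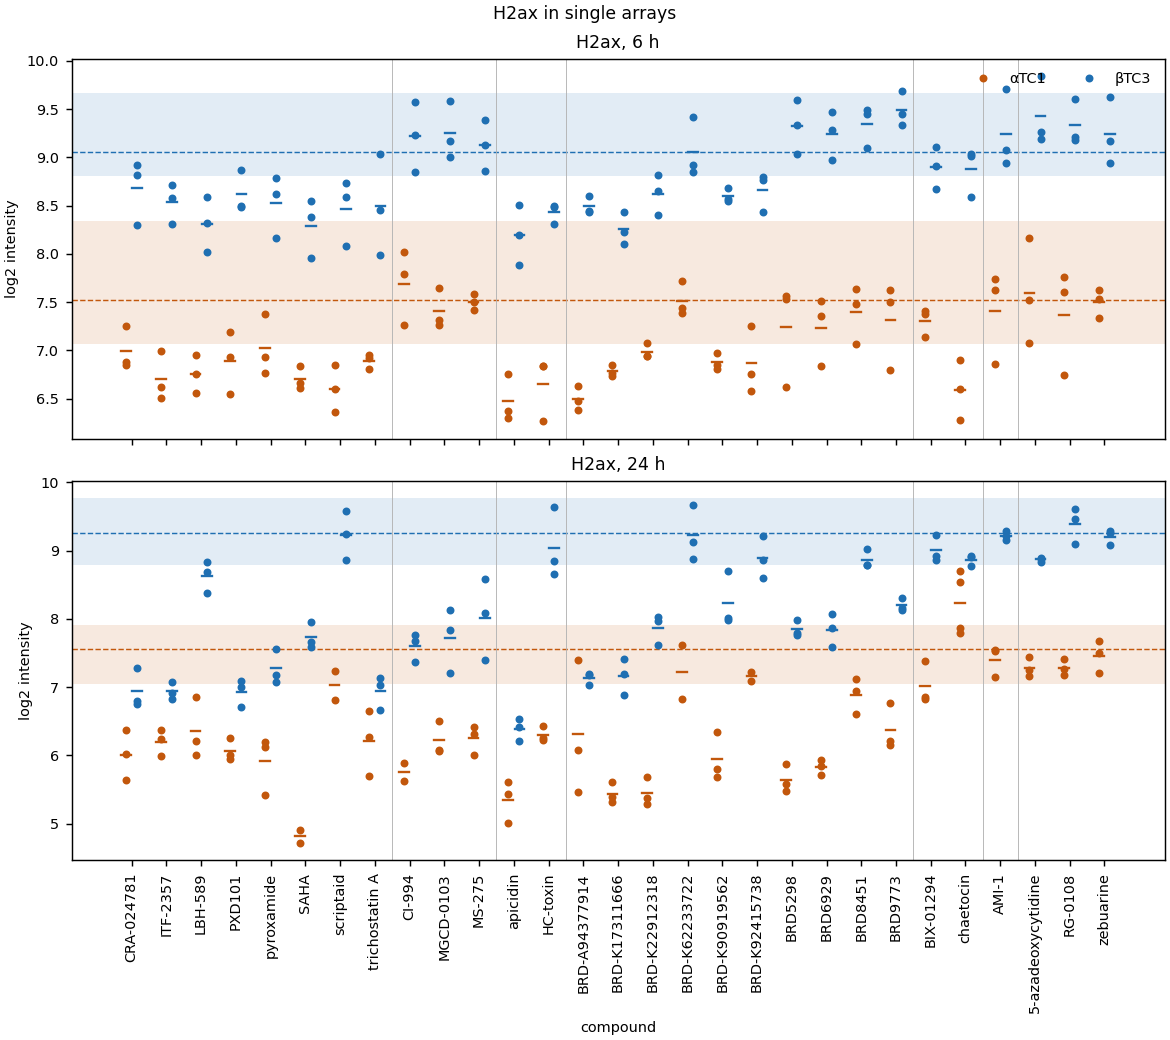
Points are H2ax log2 intensities of single arrays by compound, with group means as short bars and the DMSO range as a shaded band. At 24 h, 18 compounds in alpha-TC1 and 17 in beta-TC3 lie wholly below the DMSO arrays, and SAHA in alpha-TC1, at 4.72 and 4.91, is the lowest. No share over all genes was computed for such separation.

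Among the replication-dependent core genes, H3c15 and H2bc4 rose under hydroxamic acids in alpha-TC1 and not in beta-TC3. H3c15, an H3 gene, had a DMSO median of 2.67 (2.51 to 2.94) in alpha-TC1 at 24 h, within the near-background range. ITF-2357 raised H3c15 to 6.58, 5.83 and 5.57, at least 6.85-fold (adjusted p 1.77e-17, limma), and PXD101 to 5.64, 5.14 and 6.73, at least 6.15-fold. Pyroxamide gave 4.34, 5.69 and 6.997, CRA-024781 4.90, 6.75 and 5.03, and trichostatin A 6.44, 5.60 and 4.25, which is at least 5.50-fold, 5.07-fold and 4.64-fold. All arrays of these 5 compounds lay above DMSO, and they are the 5 that held H1f2 high. The SAHA arrays stood at 2.69 and 2.81. In beta-TC3 every hydroxamic acid overlapped the DMSO arrays of H3c15, whose median was 2.93 (2.60 to 3.54), and ITF-2357 stood at 3.09, 2.72 and 2.95. At 6 h the class mean of H3c15 was -0.04 ± 0.05 in alpha-TC1 and 0.01 ± 0.08 in beta-TC3, neither called. The hydroxamic acid mean of H3c15 at 24 h was positive in all 7 batches of alpha-TC1, between 0.05 and 4.05, and the batches hold different compounds.

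H2bc4, an H2B gene, rose earlier. In alpha-TC1 it was called higher under 17 compounds at 6 h and 14 at 24 h, against 3 and 5 in beta-TC3. Under ITF-2357 at 24 h the alpha-TC1 arrays stood at 9.86, 9.16 and 9.01 against a DMSO median of 6.86 (5.89 to 7.26), a change of 2.57 ± 0.21. The beta-TC3 arrays stood at 7.99, 7.97 and 8.01 against 7.81 (6.60 to 8.34), inside the DMSO range, with a change of -0.14 ± 0.19. CI-994 raised H2bc4 at 6 h in both lines, by 2.07 in alpha-TC1 and 0.94 in beta-TC3. H2bc22, another H2B gene, rose with a hydroxamic acid mean of 0.85 ± 0.10 at 24 h in alpha-TC1 and of 0.33 ± 0.09 at 6 h, the latter lost without the batch term (adjusted p 0.07373, limma).

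**Figure D4:**
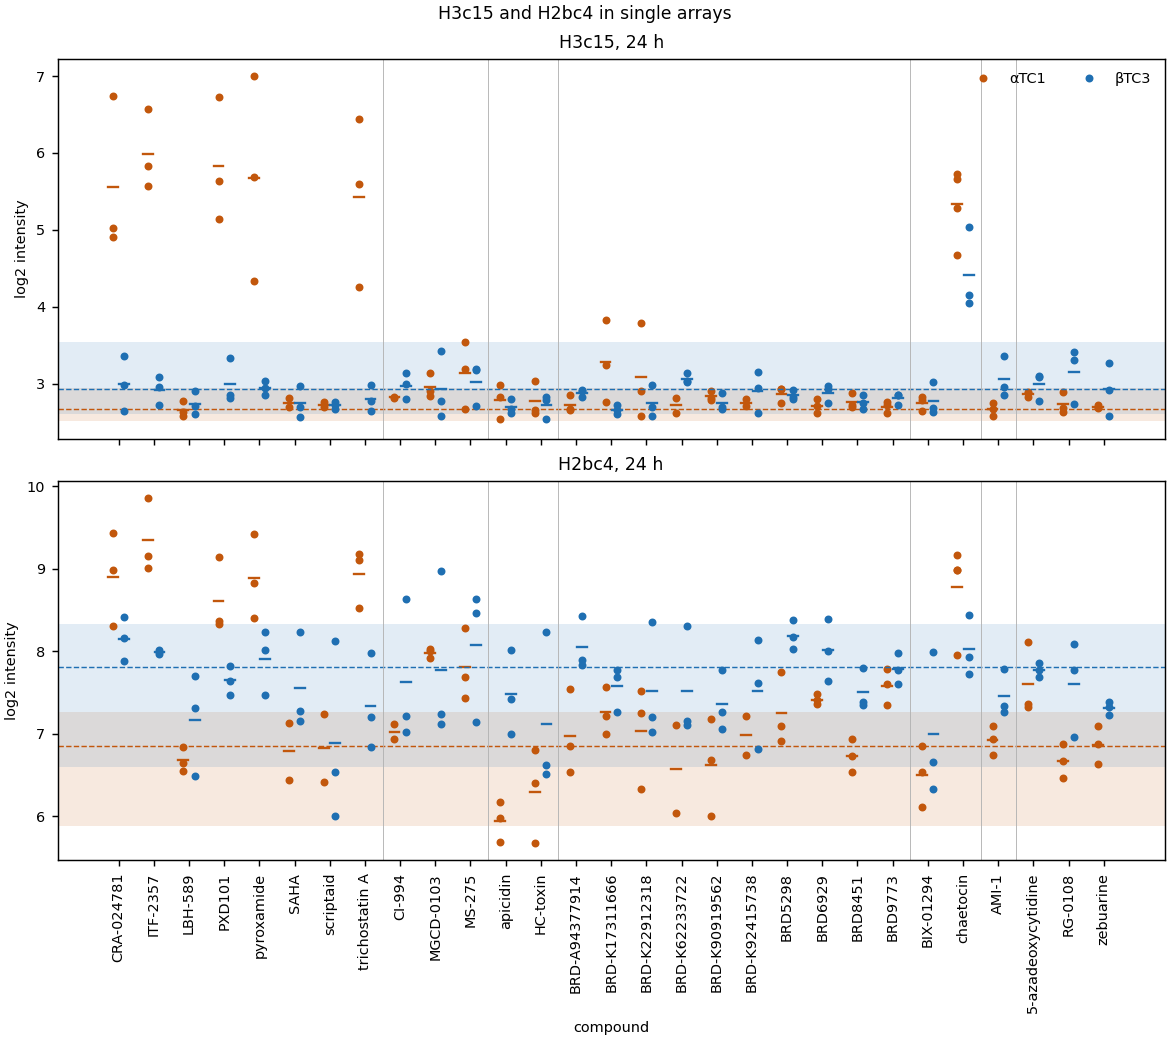
Points are log2 intensities of H3c15 and H2bc4 on single arrays at 24 h by compound in both lines, with means as short bars and the DMSO range as a shaded band. H3c15 stands above the band under 5 hydroxamic acids and chaetocin in alpha-TC1, and under chaetocin in beta-TC3.

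The class means were also counted by group of histone genes. Under the hydroxamic acids in alpha-TC1 at 6 h, 8 of the 20 genes were higher and 3 lower, beside 50.9% of all genes called. The linker genes gave 2 up and 1 down, the core genes 3 up and none down, and the variants 3 up and 2 down. Some of these calls were not stable: H3c4 (core) turned to -0.0499 with its other probe set, H3f3a (variant) turned to -0.018 with arrays centred and was lost or turned in 13 of 20 alternatives, and the H1f4 fall (linker) was lost in 5, without replicate 2 or 3 or without ITF-2357, PXD101 or trichostatin A. In beta-TC3 at 6 h, 4 were higher and 2 lower (50.3% of all genes called). At 24 h 7 were higher and 6 lower in alpha-TC1 (50.4% of all genes), and 3 higher and 7 lower in beta-TC3 (43.2%). The core genes then split 5 up (H3c15, H2bc4, H2bc22, H3c14 and H3c7) and 2 down (H4c9 and H3c1) in alpha-TC1, with a median change of 0.12 over the 10, while in beta-TC3 none rose and 3 fell (H3c14, H3c1 and H4c9), with a median of -0.14. The median over all genes was 0.00 in alpha-TC1 and 0.01 in beta-TC3. The H3c7 rise of 0.18 was lost without the batch term (adjusted p 0.274, limma), as were the H3c1 change of -0.32 in beta-TC3 (0.1041) and the H4c9 change there (-0.29, adjusted p 0.1817), which was also lost without pyroxamide (0.05297). The other probe set of H3c1 changed by -0.02 in alpha-TC1 and -0.04 in beta-TC3 and was called in neither.

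Under the anilides no core gene fell in beta-TC3 and mostly rises were seen at 6 h. In alpha-TC1 at 6 h 6 histone genes rose and 1 fell (26.6% of all genes called), and in beta-TC3 9 rose and none fell (29.4%). The gene that fell in alpha-TC1, H1f6, is near background, and its call was lost in 7 of 13 alternatives. Of the 10 core genes, 5 rose in alpha-TC1 (H2bc4 1.49, H2bc22 0.74, H4c9 0.52, H3c14 0.42, H3c7 0.21), of which H3c7 was lost in 8 of 13 alternatives, with 0.13 (adjusted p 0.4193, limma) without CI-994, and 6 in beta-TC3 (H4c9 0.97, H2bc4 0.77, H3c1 0.54, H2bc22 0.47, H3c14 0.42, and H3c15 a measured 0.33 from a near-background DMSO level). For H3c15 no lower bound of the rise could be given, as the anilide mean stayed near background too. The core medians were 0.29 and 0.38, beside medians over all genes of -0.02 and 0.02. All 6 rises in beta-TC3 were lost when the batch term was left out, with adjusted p from 0.06235 to 0.4403 (limma), and there the count of called histone genes was 4 instead of 9. With its other probe set the H3c1 value in beta-TC3 turned to -0.0345. At 24 h 7 rose and 3 fell in alpha-TC1 (43.8% of all genes), and 5 rose and 2 fell in beta-TC3 (43.7%). Several of these calls were not stable. In alpha-TC1 the H4c8 rise was lost in 8 of 13 alternatives, the H3c14 rise in 6 of 14 and the H1f10 fall in 5 of 14. In beta-TC3 the H3c1 rise was lost in 9 of 15, with a change of 6e-04 for its other probe set, and the H2bc4 rise was lost without the batch term. H4c9, raised at 6 h, had fallen by 0.75 ± 0.13 in alpha-TC1 by 24 h.

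The hydroxamic acid effect was compared between the lines with an interaction contrast, the alpha-TC1 effect minus the beta-TC3 effect. At 24 h 7 histone genes differed, all with a more positive effect in alpha-TC1, beside 33.9% of all genes. The differences were 1.56 ± 0.18 for H2bc4, 1.49 ± 0.17 for H1f2, 0.96 ± 0.13 for H3c14, 0.90 for H2bc22, 0.35 for H2ax and 0.31 for H2az2. For H3c15 the measured difference was 2.07 ± 0.16 (adjusted p 7.02e-23, limma), but its DMSO levels were near background in both lines, so that value is neither the full size nor a bound. H3c14 rose by 0.45 in alpha-TC1 and fell by 0.48 in beta-TC3, so its effects had opposite signs. Under ITF-2357 the H3c14 arrays stood at 7.80, 7.69 and 6.70 in alpha-TC1 (DMSO 5.79 to 6.57) and at 5.27, 5.46 and 5.32 in beta-TC3 (DMSO 5.74 to 6.66), with no overlap in either line. The H2ax difference was lost without the batch term (0.26, adjusted p 0.1955), with arrays centred (0.29, 0.05382), without replicate 2 (0.31, 0.05988) and when any one of CRA-024781, ITF-2357, PXD101 or trichostatin A was left out, with values from 0.22 to 0.26. At 6 h 3 genes differed, H2bc4 by 1.08 ± 0.17, H2bc22 by 0.56 ± 0.14 and H2az2 by 0.37 ± 0.08, beside 30% of all genes. The H2bc22 call was lost without the batch term (0.54, adjusted p 0.08189). H1f2 differed by 0.29 with an interval from -0.02 to 0.60 at 6 h, not called.

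Contrasted directly, the hydroxamic acids and the anilides differed in 12 histone genes in alpha-TC1 at 6 h (3 higher under hydroxamic acids, 9 lower, beside 44.8% of all genes) and in 9 in beta-TC3 (1 higher, 8 lower, 50.2%). At that time H1f10 was higher under hydroxamic acids in both lines, by 0.78 ± 0.13 and 0.30 ± 0.13, and H2bc4 lower, by differences of -0.61 and -0.92. At 24 h H3c15 was higher under hydroxamic acids in alpha-TC1, by a measured 1.61 ± 0.19 against anilide arrays with a median near background, 2.87 (6 genes called, 27.6% of all genes), and in beta-TC3 9 genes were lower and none higher (32.5%), led by H1f2 at -1.48 ± 0.12 (adjusted p 3.03e-17, limma). In alpha-TC1 the H1f2 difference between the classes at 24 h was 0.21, interval -0.08 to 0.49. With only the arrays of the compounds compared in the fit, the count in alpha-TC1 was 7 at 6 h and 1 at 24 h. The compounds of the classes differ in dose.

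ITF-2357 and pyroxamide, both hydroxamic acids, and the ortho-amino anilide CI-994 were all used at 10 µM, which allowed 3 pairs to be compared at a matched dose, with p-values adjusted over all genes and the 3 pairs. CI-994 shared none of its batches with either hydroxamic acid, so its pairs are set against each other only through DMSO and the other compounds of those batches. Between the hydroxamic acids, ITF-2357 minus pyroxamide, H1f2 differed by -0.60 ± 0.20 and H2bc4 by -0.66 ± 0.24 in alpha-TC1 at 6 h (7.17% of all genes called). Neither call held when p-values were adjusted over that pair alone, an alternative chosen after seeing the data (0.788% of all genes called), nor in a fit with only the arrays of both compounds. That last fit leaves 2 residual degrees of freedom at 6 h and 1 at 24 h in alpha-TC1, so a call lost there says little. At 24 h in that line H1f10, at 0.67, was the called histone gene (4.82% of all genes), again lost under both of these alternatives (2.34% of all genes called over that pair alone), H1f2 differed by 0.60 with an interval from 0.08 to 1.12, and H3c15 by 0.28 with an interval from -0.40 to 0.96. In beta-TC3 at 24 h 6 histone genes differed (16.4% of all genes), among them H3c14 at -0.70 and H2ax at -0.59. The ITF-2357 arrays there are of 1 batch, and without the batch term 2 of the differences were called. ITF-2357 minus CI-994 was 2.25 ± 0.30 for H1f2 and 1.89 ± 0.31 for H2bc4 in alpha-TC1 at 24 h (19.5% of all genes called), and pyroxamide minus CI-994 was 1.64 and 1.49 for the same genes (14.7%). H3c15 was higher under either hydroxamic acid than under CI-994 as well, whose arrays of 2.81 and 2.83 were near background. In beta-TC3 H1f2 lay the other way at 24 h, at -0.75 for ITF-2357 minus CI-994 (19.8% of all genes) and at -1.29 for pyroxamide minus CI-994 (13.7%). H2ax was lower under either hydroxamic acid than under CI-994 at 6 h in both lines, by differences of -0.998 and -0.68 in alpha-TC1 (28.5% and 28.6% of all genes called) and -0.92 and -0.93 in beta-TC3 (34.6% and 29.1%). In alpha-TC1 at 24 h, where CI-994 has 2 arrays, the H2ax differences were 0.09 (interval -0.45 to 0.63) and -0.05 (-0.59 to 0.49).

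Of the other linker genes, H1f10 (histone H1x) was, at 6 h, called higher under 15 compounds in alpha-TC1, among them all 8 hydroxamic acids, and under 9 in beta-TC3, 5 of them hydroxamic acids. Pyroxamide arrays of alpha-TC1 stood at 8.81, 9.08 and 8.33 against a DMSO median of 7.40 (6.80 to 8.14), a change of 1.43. Trichostatin A arrays of beta-TC3 stood at 8.95, 8.75 and 8.42 against 7.65 (7.32 to 8.20), a change of 1.06. Neither group overlapped DMSO. Under the anilides H1f10 was called higher at 6 h by none of 3 compounds in either line. At 24 h H1f10 was lower under 10 compounds in alpha-TC1, 6 of them coded. In beta-TC3 it was lower under 2 of 29, near the 8.73% share over all genes. H1f4, the gene for histone H1.4, fell under 5 compounds in beta-TC3 at 24 h, most under ITF-2357 (-1.12), whose arrays of 3.57, 3.56 and 3.39 lay inside the DMSO range of 3.19 to 4.78. In alpha-TC1 no compound called H1f4 at 24 h, where its class mean of -0.34 was called but lost with the array plate as a random block (adjusted p 0.08932, limma). H1f6 and H1f8 were called under no compound at 24 h in either line.

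The variants for H2A.Z moved apart. H2az2, which encodes the isoform H2A.Z.2, rose under 16 compounds in alpha-TC1 at 6 h and 19 at 24 h, and under 3 and 8 in beta-TC3. The 3 of 29 in beta-TC3 at 6 h are near the share of all comparisons called higher there. In that line all arrays of a compound lay above DMSO for 0 compounds at 6 h and 1 at 24 h. CI-994 arrays of alpha-TC1 at 24 h stood at 11.54 and 11.60 against a DMSO median of 10.61 (10.13 to 10.75), a change of 0.90. H2az1, the gene of the isoform H2A.Z.1, fell instead, under 10 compounds in alpha-TC1 and 14 in beta-TC3 at 6 h, and under 9 and 13 at 24 h. PXD101 arrays of beta-TC3 at 24 h stood at 11.26, 11.29 and 11.41, below every DMSO array (12.08 to 12.31), a change of -0.90. The hydroxamic acid mean at 24 h was 0.44 ± 0.05 for H2az2 and -0.32 ± 0.04 for H2az1 in alpha-TC1, and 0.11 ± 0.04 and -0.39 ± 0.03 in beta-TC3. The H2az2 call in beta-TC3 was lost without replicate 2 (adjusted p 0.05971, limma), replicate 3 (0.06486) or SAHA (0.06). H3f3b, which with H3f3a encodes the variant H3.3, rose under 13 compounds in alpha-TC1 and 7 in beta-TC3 at 6 h, by at most 0.53 and 0.44. H3f3a was called higher under no compound at 6 or 24 h (limma), and lower under 3 in each line at 24 h, with a largest change of -0.45 under ITF-2357 in beta-TC3, where its arrays (11.20, 11.18 and 11.17) overlapped DMSO (11.14 to 11.72). The 2 H3.3 genes encode the same protein.

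H4c9, so unequal between the lines in DMSO, fell late in both. At 24 h it was lower under 16 compounds in alpha-TC1 and 8 in beta-TC3. SAHA arrays of alpha-TC1 stood at 8.18 and 8.30, below every DMSO array (9.42 to 10.47), a change of -1.66 ± 0.21, while in beta-TC3 SAHA (4.29, 3.74 and 4.67) overlapped DMSO (4.08 to 5.42) and was not called. At 6 h CI-994 had raised H4c9 by 0.72 in alpha-TC1 and 1.13 in beta-TC3, with arrays that overlapped DMSO in each line. H3c1 fell at 24 h under 6 compounds in alpha-TC1, most under apicidin (-1.88), and under 10 in beta-TC3. The remaining 4 core genes, H2bc18, H3c7, H4c8 and H3c4, were called under at most 3 compounds at any time in either line.

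Chaetocin, a fungal inhibitor of lysine methyltransferases, raised more histone genes at 24 h than any other compound here, most of them replication-dependent. At that time 10 of the 20 histone genes rose and 2 fell in alpha-TC1 (47.9% of all genes called), and 9 rose and 1 fell in beta-TC3 (30.9%). Of the 10 core genes 7 rose in alpha-TC1 and 8 in beta-TC3 and none fell, with median changes of 1.54 and 0.91 (1.51 and 0.91 with near-background genes at their bound) beside medians over all genes of 0.04 and -0.02. H3c14 stood at 8.89, 10.21, 9.58 and 8.58 in alpha-TC1 against a DMSO range of 5.79 to 6.57, and at 8.61, 8.47 and 8.04 in beta-TC3 against 5.74 to 6.66. No array overlapped DMSO, and the changes were 3.10 ± 0.17 (8.60-fold, adjusted p 4.73e-25, limma) and 2.26 ± 0.11 (4.78-fold, 4.91e-28). H3c15 rose to 5.28, 5.67, 5.73 and 4.68 in alpha-TC1, at least 4.36-fold, and to 5.04, 4.16 and 4.05 in beta-TC3, at least 2.25-fold, where no hydroxamic acid raised it.

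Other core genes that hardly moved elsewhere rose under chaetocin. H4c8 had levels of 5.35, 5.56, 5.40 and 4.20 in alpha-TC1, above the DMSO range of 3.02 to 3.45, and 4.85, 4.74 and 4.81 in beta-TC3, above 3.26 to 4.51, with changes of 1.85 and 1.03. Its DMSO median in alpha-TC1, 3.23, was barely above the near-background level, so the size of 1.85 is uncertain. H2bc18 had levels of 4.14, 5.41, 4.63 and 4.22 in alpha-TC1 (DMSO 2.88 to 3.30) and 3.78, 4.43 and 4.46 in beta-TC3 (DMSO 2.95 to 3.73), at least 2.59-fold higher in alpha-TC1 and with a change of 0.89 in beta-TC3. Chaetocin was the one compound of 29 with a called rise of H4c8 or H2bc18 at 24 h in either line, and the same held for H3c7 (1.29 and 0.79). H2bc18 had already risen at 6 h, at least 2.10-fold in alpha-TC1 and by 0.68 in beta-TC3. H2bc22 rose by 1.64 and 0.94 and H2bc4 by 1.99 and 0.77 at 24 h. H3c1 rose in beta-TC3 (1.14 ± 0.11), and its change in alpha-TC1 was -0.03 ± 0.25. The H2bc4 rise in beta-TC3 was lost without the batch term (0.49, adjusted p 0.3789).

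Linker and variant genes behaved otherwise under chaetocin. H1f10 fell by 1.23 ± 0.17 in alpha-TC1 (arrays 6.61, 6.53, 5.95 and 6.11, DMSO 7.10 to 8.09) and by 0.97 ± 0.19 in beta-TC3 (7.53, 6.74 and 7.43, DMSO 7.62 to 8.83) at 24 h, with no overlap. H1f2, raised by most HDAC inhibitors, was not called under chaetocin at 24 h, and at 6 h in alpha-TC1 it was lower by a change of -0.62, a call lost without replicate 2 (-0.36, adjusted p 0.171, limma). H2ax in alpha-TC1 was lower at 6 h (6.28, 6.60 and 6.90, change -0.91) and higher at 24 h (7.80, 8.54, 8.70 and 7.87, change 0.57). It was the called rise of H2ax at 24 h among the 29 compounds, and its arrays overlapped DMSO. H3f3b fell at 6 h in both lines (-0.68 and -0.63), with every array below DMSO, but with its other probe set the alpha-TC1 change was -0.27 and not called (adjusted p 0.07036, limma). At 6 h chaetocin called 4 genes higher and 5 lower in alpha-TC1 (32.7% of all genes) and 4 higher and 2 lower in beta-TC3 (23.6%), and without the batch term the beta-TC3 count was 2.

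**Figure D5:**
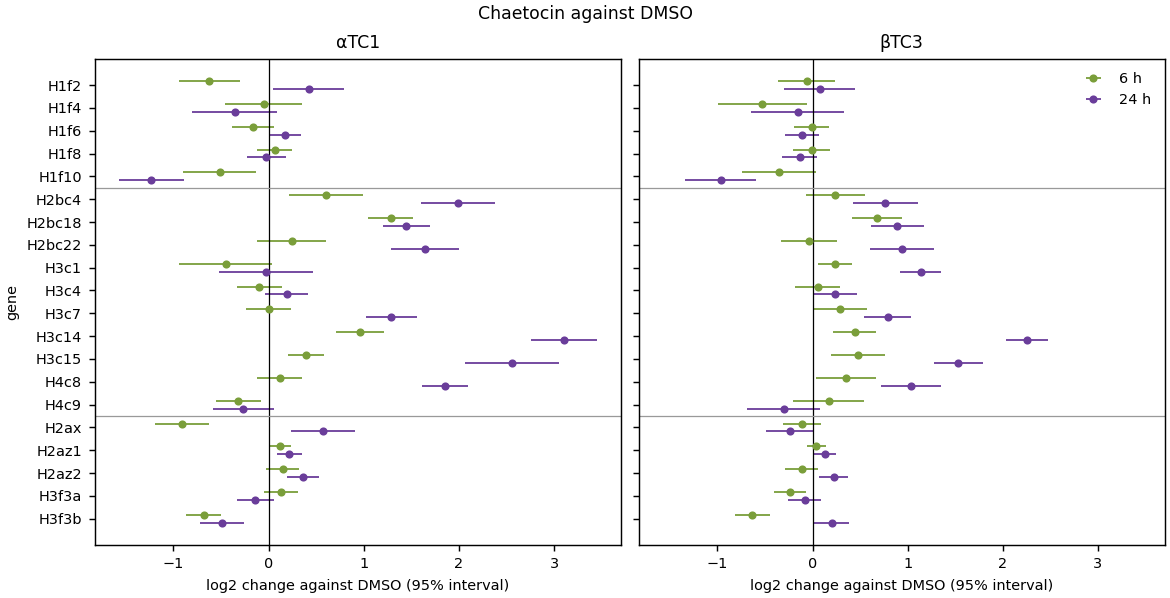
Points are the log2 changes of the 20 histone genes under chaetocin against DMSO at 6 h and 24 h in each line, and bars are 95% intervals. At 24 h the replication-dependent genes reach 3.10 (H3c14) in alpha-TC1 and 2.26 in beta-TC3, and H1f10 is lowest in both.

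Of the remaining compounds, apicidin and several coded compounds moved many histone genes at 24 h, and the others named below moved few. In alpha-TC1 BRD5298 then called 9 (1816 of all genes higher and 2007 lower), BRD-K17311666 8 (1668 and 1805) and BRD6929 7 (1432 and 1573). In beta-TC3 BRD-A94377914 called 9 (1474 and 1532) and BRD-K17311666 8 (1591 and 1251). H2ax had the largest change in each, a fall of 1.90, 1.96 and 1.71 in alpha-TC1 and of 2.20 and 2.16 in beta-TC3. Apicidin at 24 h called 10 in alpha-TC1, 1 higher and 9 lower (2270 and 2186 of all genes). In beta-TC3 it called 5, all lower (2211 of all genes higher and 2055 lower). 5-azadeoxycytidine, a DNA methylation inhibitor, raised H2bc4 by 0.88, H2bc22 by 0.82 and H1f2 by 0.68 in alpha-TC1 at 24 h (6.78% of all genes called), with H2bc4 arrays of 7.33, 8.12 and 7.36 all above DMSO. In beta-TC3 it lowered H2ax by a change of -0.46 and raised H3f3b by 0.40 (8.38% of all genes). BIX-01294 called H4c9 in alpha-TC1 at 24 h (-0.77, 1.6% of all genes), zebuarine H3f3b in beta-TC3 at 24 h (0.38, 3.36% of all genes), and BRD8451 H2ax in beta-TC3 at 24 h (-0.47, 2.63% of all genes). AMI-1, RG-0108 and BRD-K62233722 called no histone gene at any time in either line (limma). Of all genes they called 0%, 0.0423% and 0.102% in alpha-TC1 and 0%, 0% and 1.91% in beta-TC3 at 6 h, and 0%, 0% and 0.00847% in alpha-TC1 and 0%, 0% and 0.0932% in beta-TC3 at 24 h. At 24 h they had 1, 0 and 1 genes of 20 with an unadjusted p under 0.05 in alpha-TC1, and 1, 3 and 1 in beta-TC3. Scriptaid called 6 histone genes in alpha-TC1 and 4 in beta-TC3 at 6 h (31.3% and 30.4% of all genes) and none at 24 h, where 0.423% and 0.0508% of all genes were called and 2 and 5 histone genes had an unadjusted p under 0.05. HC-toxin called 6 and 3 at 6 h (32.9% and 30.2% of all genes), then 3 in alpha-TC1 (21.9%) and none in beta-TC3 (2.2%).

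Genes that supply or use histones were read beside them, from lists chosen with earlier results of these data known. Of 28 measured DNA replication genes, the hydroxamic acids at 6 h lowered 22 and raised 1 in alpha-TC1 (median -0.43) and lowered 27 and raised 1 in beta-TC3 (median -0.65), while the all-gene medians were -0.01 and -0.01. Of all genes, 24.3% were lower and 26.6% higher in alpha-TC1 then, and 24% and 26.2% in beta-TC3. Tk1, thymidine kinase, fell by 2.19 and 2.67. At 24 h 18 and 20 of the 28 were lower (24.3% and 20.7% of all genes), with medians of -0.25 and -0.28. H3c15, H2bc4 and H1f2 rose in alpha-TC1 at 24 h beside this fall in replication genes, and whether that bears on the histone genes was not tested. Under chaetocin at 24 h 20 of the 28 rose and 3 fell in alpha-TC1 (median 0.64), and 18 rose and 1 fell in beta-TC3 (median 0.53). Of all genes 23.4% rose and 24.5% fell in alpha-TC1 there, and 15.4% and 15.5% in beta-TC3. The replication licensing gene Cdc6 rose by 2.26 and 1.88. Of 8 genes for the transcription and stem-loop processing of histone mRNA, chaetocin raised 2 and lowered 3 in alpha-TC1 (median -0.11) and raised 4 and lowered 2 in beta-TC3 (0.46), and of 13 histone chaperone genes it raised 5 and 4 and lowered 2 and 1 (medians 0.26 and 0.21). Slbp, the stem-loop binding protein of histone mRNA, rose under chaetocin by 1.28 and 0.95, and Casp8ap2 (FLASH), which takes part in histone mRNA processing, by 1.04 and 0.65. Hat1, a histone acetyltransferase of new H4, rose by 0.97 and 0.62 and Chaf1b, a subunit of the chaperone CAF-1, by 0.72 and 1.04. Under the hydroxamic acids at 6 h 5 of the 8 processing genes were higher and 3 lower in alpha-TC1 (median 0.20), and 1 higher and 4 lower in beta-TC3 (-0.13), and of the 13 chaperone genes 4 and 3 were higher and 6 and 4 lower (medians 0.01 and -0.04). Cpsf2, a subunit of the processing complex, fell by 0.95 in alpha-TC1 and 0.92 in beta-TC3, and Coil, of Cajal bodies, by 0.89 and 0.70. The anilides lowered 13 replication genes and raised 1 in alpha-TC1 at 6 h and lowered 17 and raised none in beta-TC3 (13.9% and 16.5% of all genes lower). At 24 h 9 were higher and 4 lower in alpha-TC1 (21.2% and 22.5% of all genes) and 2 higher and 17 lower in beta-TC3 (22% and 21.7%). At 24 h in alpha-TC1 Slbp rose by 0.91, Asf1b, a chaperone of H3 and H4, by 0.98, and Hira, the H3.3 chaperone, fell by 0.85. Counts over the 8 processing and 13 chaperone genes are not given for the anilides, so these 3 genes do not stand for their lists. The part of replication or processing genes in the histone changes was not tested.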

How the data were processed

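Expression was measured on 594 Affymetrix mouse arrays (299 of alpha-TC1, 295 of beta-TC3; 518 with a compound, 76 with DMSO), hybridised with biotin-labelled cRNA. The deposited values, a single intensity for every probe set on every array, came from RMA, which the submitters' processing notes name per the labels; its version and any batch correction are not given in the sources used here. The deposited intensities, from 3.962 to 13635, are linear, although the design of the tests assumed log2 values, so log2 was taken first. Arrays have no read depth, so precision rests on how many there are.

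Of 22716 probe sets 18003 carried 1 gene symbol in the platform annotation, 287 several and 4426 none. The 26 histone probe sets with 1 symbol gave 20 genes, 6 of them with 2 probe sets, and 3 histone probe sets with several symbols were left out. Tests used limma 3.58.1 in R 4.3.3 over all 11807 genes, each line and time fitted alone with its DMSO and compound arrays and 7 batches as a fixed term. Contrasts of lines or of DMSO times used joint fits. The Benjamini-Hochberg adjustment of p-values ran across all genes of each comparison (over genes and pairs for the matched-dose pairs), and a gene was called at an adjusted p under 0.05. Class means weight compounds equally. Levels printed per array carry no batch adjustment, while changes do. Replicate arrays of a line share 1 culture line and nothing in the labels says that they are separate cultures, so p-values measure the spread between these arrays, which may be technical.

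The members came from the rule on symbols, and the lists were chosen with earlier results of these data known. Every member is accounted for. Values per array were to be given for H1f0 (not measured), H1f2, H2ax, H2az1, H2az2, H3f3a and H3f3b, for up to 6 further members with the largest rise and 6 with the largest fall among those called in both lines under hydroxamic acids or anilides, and for each other compound's member with the largest called change at 24 h. For the coded compounds, BIX-01294, zebuarine and HC-toxin no values per array are given. H3c15, H4c8, H2bc18 and the chaetocin array values of other genes were added after their values were seen. Of the gene lists up to 4 called members could be named. Promoters and motif shares came from RefSeq's table for GRCm38.p6. Lower bounds for genes near background and the adjustment over 1 pair alone were added after the values were seen. The scripts were checked on simulated data, and the alternatives are in the closing section.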

Additional observations from a re-analysis of the deposited data

Results flagged for a closer look

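Probe sets that carry more than 1 histone symbol stood outside the comparisons, and those named for H2ac18 or H2ac19, near-identical H2A genes, moved most under chaetocin. The probe set 1418366_at rose by 1.11 at 6 h and 4.13 at 24 h in alpha-TC1 and by 2.45 at 24 h in beta-TC3, and 1418367_x_at rose by 1.59, 4.50 and 2.38 (limma, adjusted p under 0.05). The largest chaetocin change among the 20 histone genes in alpha-TC1 at 24 h was 3.10, for H3c14. Under the hydroxamic acids at 24 h in alpha-TC1 they rose by 0.76 (1418366_at) and 0.86 (1418367_x_at), and under the anilides by 0.41 and 0.36. In beta-TC3 the hydroxamic acids lowered them at 24 h, with changes of -0.21 and -0.40. In beta-TC3 at 6 h 1418367_x_at rose by 0.22 under the anilides. Which of the H2A genes these probes read was not tested.

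The hydroxamic acid effect differed between the lines by the interaction test (limma, Benjamini-Hochberg). At 24 h the alpha-TC1 effect minus the beta-TC3 effect was 1.56 for H2bc4, 1.49 for H1f2, 0.96 for H3c14, 0.90 for H2bc22, 0.35 for H2ax and 0.31 for H2az2, and a measured 2.07 for H3c15, whose DMSO levels are near background in both lines. At 6 h it was 1.08 for H2bc4, 0.56 for H2bc22 and 0.37 for H2az2. H1f2, H2bc4 and H2ax also start from lower DMSO levels in alpha-TC1, by differences of -1.21, -0.86 and -1.75 at 24 h, and the part of that in the differing effects was not tested.

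Among the 4 chaetocin arrays of alpha-TC1 at 24 h, an array stood apart from the others in each of 4 genes, though not the same array in all. Chance gives about 1 in 20 for a single reading of a gene in a group, and 40 such readings were tested. The genes were read on the same arrays, so these readings are not independent. Replicate 4 was lowest for H2bc4 at 7.96 (next 8.98) and for H4c8 at 4.20 (next 5.35), and replicate 1 was lowest for H2az1 at 12.17 (next 12.35) and for H3f3a at 10.63 (next 11.20). The H2bc4 and H4c8 values of replicate 4 still lie above every DMSO array.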

How the results depend on the processing

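The batch term mattered most in beta-TC3. Without it the histone calls over 29 compounds there went from 105 to 51 at 6 h and from 117 to 70 at 24 h, the anilide count at 6 h from 9 to 4, hydroxamic acids minus anilides at 24 h from 9 to 4, and the matched-dose pairs from 18 to 5 at 6 h and from 16 to 4 at 24 h. With only the arrays of the groups compared, hydroxamic acids minus anilides in alpha-TC1 went from 12 to 7 at 6 h and from 6 to 1 at 24 h, in a fit with fewer arrays. For the pairs with CI-994 that alternative could not be fitted, since CI-994 shared no batch with either hydroxamic acid. ITF-2357 minus pyroxamide had 2 and 1 calls at 6 and 24 h in alpha-TC1 and 0 and 0 without the batch term, 0 and 0 with only their arrays and 0 and 0 adjusted over the pair alone. The fit with only their arrays leaves 1 or 2 residual degrees of freedom, so a call lost there says little. The 24 h call was also lost with arrays centred (0) and with another quantile normalization (0). In beta-TC3 the pair had 3 and 6 calls, and 0 and 2 without the batch term, 0 at 6 h with only their arrays, 1 at 6 h adjusted over the pair alone and 1 at 6 h with the mean of probe sets. Adjustment over the pair alone was chosen after seeing the data. Without each replicate in turn the pair had 0 to 3 and 0 to 1 calls at 6 and 24 h in alpha-TC1, and 1 to 3 and 3 in beta-TC3. The array plate as a random block raised the line difference at 6 h from 3 to 6. With arrays centred on their medians, the hydroxamic acids at 6 h in alpha-TC1 called 2378 of all genes higher and 6454 lower, instead of 3141 and 2870. The median change over all genes went from -0.0132 to -0.1397 there. The shares of all genes called in each direction therefore depend on the scaling of the arrays. DMSO over time gave 2 calls in alpha-TC1, and 0 without the batch term, 4 with the plate block, 1 with arrays centred and 4 with only the DMSO arrays, and 3 in beta-TC3, and 5 with the plate block. At 1 h the hydroxamic acids had 1 call in alpha-TC1, H1f2 at -0.26, and 0 without the batch term, 2 with the plate block, 2 with arrays centred, 2 with another quantile normalization, 0 with the mean of probe sets, 0 without each replicate in turn, and 0 to 1 without each compound in turn. Single compounds at 1 h in beta-TC3 had 0 calls, and 1 with arrays centred, 1 with genes below the median level left out, and 0 to 2 without each replicate. Signs turned for H3c4 (hydroxamic acids, alpha-TC1, 6 h) at -0.0499 with the other probe set, for H3f3a in the same comparison at -0.018 with arrays centred, and for H3c1 (anilides, beta-TC3, 6 h) at -0.0345 with the other probe set. The cause of these changes was not tested. Replicate numbers in the labels did not pair the arrays, since residuals of same-numbered arrays had mean correlations of 0.0151 to 0.0229, with a lowest of -0.73. A replicate block gave 13 calls in alpha-TC1 and 10 in beta-TC3 for the hydroxamic acids at 24 h, and 146 and 119 over all compounds, within 1.5 times of the fit without it in every comparison run. The H1f2 and H3c15 rises under hydroxamic acids at 24 h in alpha-TC1 stayed called under every alternative run for them. The number of arrays, 2 to 4 per compound, and low signal in DMSO, as for H3c15, H2bc18, H4c8, H1f6 and H1f8, limit the precision.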
